A study of Mus musculus with 4 samples.

Results

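The SoxF transcription factors are Sox7, Sox17 and Sox18, and 11 of the 12885 peaks of SCL (gene symbol Tal1) in FLK1+ mesoderm were nearest to the transcription start site (TSS) of one of them. A peak was counted for a SoxF gene when its summit, the position of most ChIP fragments, had a TSS of that gene as the nearest protein-coding TSS on the mm9 genome. Sox7 held 6 of these peaks, Sox17 held 4 and Sox18 held 1.

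SCL ChIP-seq was performed on FLK1+ cells collected by magnetic selection from day 3.5 embryoid bodies, the aggregates in which mouse embryonic stem (ES) cells differentiate. The cells were wild-type J1 ES cells, with the strain given as C57Bl/6 X Sv129, and both the SCL and the control libraries came from such cells. There were 2 SCL libraries, made with a rabbit antiserum raised in-house, and 2 input libraries with no antibody, from 2 independent differentiations. The peaks were called on the merged libraries, so every value is 1 pooled value with no replicate error. The study gives a smaller number of bound loci than there are peaks in the list, and its methods name a genome viewer used to filter and identify peaks, with cut-offs not given in the sources used here. All counts, shares, ranks and densities rest on the whole list. The 95% Poisson intervals of the fragments at the summit cover counting error only. A peak list holds no RNA values, so the FLK1+ label could not be checked against marker genes.

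SoxF proteins bind DNA through an HMG box and act together in endothelial and lymphatic vessel development. Sox17 is known for arterial fate, hemogenic endothelium and definitive endoderm, Sox18 for lymphatic specification, and Sox7 for the first blood and endothelial precursors of mesoderm. SCL is a basic helix-loop-helix factor that binds E-boxes together with E proteins and joins GATA factors through LMO2 and LDB1, so its sites often hold a GATA motif. Which SCL peaks lie around the SoxF genes, and what they hold in sequence, is described gene by gene.

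Sox7 (ENSMUSG00000063060.5, chr14:64562511-64569569, plus strand) had 6 peaks, and 1.27% of the 22238 protein-coding genes had as many or more. Only 2 of these lay in the gene or within 10 kb of it. From upstream to downstream of its single TSS the summits lay at −35.0, −29.6, −21.1, −1.2, +14.3 and +19.4 kb, over a span of 54.3 kb. The most upstream pair lay in an intron of Pinx1, a gene for a telomerase inhibitor that contains them without being nearest by TSS, and the other 4 were intergenic. The strongest Sox7 peak was the one at −35.0 kb (chr14:64527025-64528197), with 74.9-fold enrichment over background (95% interval 69.7 to 80.3). This was also the strongest peak of any SoxF gene, rank 437 of the list by fold, and its 780 fragments at the summit stood against a background of 9.43.

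The sequence of 101 bp around the summit of the −35.0 kb peak is shown because this strongest SoxF peak had GATA factor and ETS motifs but no E-box in the window (mm9, plus strand, chr14:64527505-64527605, GATA factor motifs in capitals). Beside it stands the Sox7 window that held a composite of CTG and GATA, at −29.6 kb (mm9, plus strand, chr14:64532860-64532960, both arms of the composite in capitals, here on the minus strand).
Sox7 −35.0 kb: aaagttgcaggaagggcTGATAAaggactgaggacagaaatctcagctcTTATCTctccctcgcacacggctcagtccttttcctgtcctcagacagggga
Sox7 −29.6 kb: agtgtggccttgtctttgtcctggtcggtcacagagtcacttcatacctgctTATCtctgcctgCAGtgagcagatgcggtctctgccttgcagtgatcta

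The Sox7 −35.0 kb window held 2 GATA factor motifs, of which one was centred 1.5 bp from the summit. Its nearest E-box lay 203.5 bp away, although the peak was 1173 bp wide and held 8 E-boxes and 5 GATA factor motifs in all. The −29.6 kb peak (chr14:64532752-64533046) was weaker, at 13.7-fold (10.7 to 17.2) with 70 fragments. Its GATA factor motif was centred 3.5 bp from the summit and belonged to the composite, and an E-box lay 23.5 bp away.

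The other Sox7 peaks differed among themselves. At +14.3 kb (chr14:64576530-64577196) enrichment was 42.1-fold (37.8 to 46.6) with 359 fragments, and the single GATA factor motif was centred 0.5 bp from the summit. At −21.1 kb (chr14:64541187-64541563) it was 27.6-fold (22.5 to 33.5) with 100 fragments. At +19.4 kb (chr14:64581682-64581993) it was 8.12-fold (5.72 to 11.2) with 35 fragments, the lowest of all SoxF peaks. Both of these also had a GATA factor motif in the window, 11.5 and 27.5 bp from the summit.

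The peak nearest to the Sox7 promoter (chr14:64561163-64561925) had its summit 1156 bp upstream of the TSS, and its downstream end lay at −586 bp. Its enrichment of 10.8-fold (8.34 to 13.9) with 61 fragments was below the list median of 11.1, although its width of 763 bp exceeded that of 93.1% of peaks. No GATA factor motif was found anywhere in it, the only SoxF peak of which this was true. The −35.0 kb peak, assigned to Sox7 by nearest TSS only, held 55.5% of the 1405 fragments summed over the 6 Sox7 summits. A position away from a promoter was common in the list, where 7.59% of summits lay within 1 kb of a TSS.

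Sox7 peaks were also dense. The sequence nearer to the Sox7 TSS than to any other protein-coding TSS was 63.7 kb long and held 9.41 peaks per 100 kb, against 0.485 over the whole genome. Peaks per 100 kb were lower in 99.0% of protein-coding genes, most of which had no peak, and 221 genes had more. The median among genes with any peak was 1.51. The run of peaks did not stop at this boundary. The +19.4 kb peak was 24.7 kb from the TSS of 4930578I06Rik, and the next peak, at +22.4 kb with 8.22-fold enrichment, was already nearer to that gene. Within 100 kb of the Sox7 TSS there were 13 peaks, of which 7 were nearest to another gene. Farther downstream, peaks nearest to Rp1l1, a gene known from photoreceptors, reached 53.4-fold at +63.0 kb, 57.9-fold at +102.8 kb and 47.7-fold at +111.8 kb.

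Sox17 (ENSMUSG00000025902.7, chr1:4481009-4486494, minus strand, 2 TSSs) had 4 peaks, and 3.65% of protein-coding genes had as many or more. Only 1 lay in the gene or within 10 kb of it. All 4 were outside gene bodies by their summits and were spread over 129.2 kb, at −106.1 kb, −75.4 kb, −80 bp and +23.0 kb. No other gene's peak lay within 200 kb. Enrichment was highest at −75.4 kb (chr1:4561543-4562304), 25.4-fold (21.4 to 29.8) with 144 fragments. The promoter peak was close to it, at 21.8-fold (18.6 to 25.5) with 158 fragments, and the intervals of the pair overlapped.

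The Sox17 promoter peak (chr1:4486146-4487732) covered both TSSs, from −1238 to +348 bp of the start nearest to its summit. It was 1587 bp wide, wider than 99.9% of all peaks, and it was the only SoxF peak with a summit within 1 kb of a TSS (1 of 11, where the share over the list was 7.59%). An ETS motif was centred on its summit (0 bp), an E-box lay 37.5 bp away, and 2 KLF motifs lay at 41.5 and 47.5 bp. The nearest GATA factor motif lay at 53.5 bp, just outside the window of 50 bp. A composite lay 107.5 bp from the summit, 1 of 2 in the whole peak.

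The distal Sox17 windows are shown for the strongest peak and for the one with a composite, which differ in base composition. The first is the window at −75.4 kb (mm9, plus strand, chr1:4561800-4561900, GATA factor motif in capitals), and the second is the window at −106.1 kb (mm9, plus strand, chr1:4592571-4592671, both arms of the composite in capitals).
Sox17 −75.4 kb: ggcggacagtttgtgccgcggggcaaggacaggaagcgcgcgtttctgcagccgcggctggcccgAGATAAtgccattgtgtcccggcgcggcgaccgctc
Sox17 −106.1 kb: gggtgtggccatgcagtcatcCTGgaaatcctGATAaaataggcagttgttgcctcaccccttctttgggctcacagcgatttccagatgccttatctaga

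The Sox17 −75.4 kb window was 69.3% G and C, more than 99.6% of the windows of the list, and held 14 CpG dinucleotides. Only 17 peaks of the list had as many, and the list median was 1. Its single GATA factor motif was followed by a SOX motif, the sequence class that SoxF proteins themselves bind, with centres 17.5 and 26.5 bp from the summit. At −106.1 kb (chr1:4592442-4592834) enrichment was 15.5-fold (13.0 to 18.3) with 136 fragments, and the window held 2 GATA factor motifs and 2 E-boxes besides the composite. The peak at +23.0 kb (chr1:4463279-4463594) was the weakest of the gene, 8.40-fold (6.22 to 11.1) with 47 fragments, although its window held 3 GATA factor motifs, the most of any SoxF peak. By fragments rather than fold, the highest Sox17 summit was that of the promoter peak, with 32.6% of the 485 fragments summed over the gene. The sequence nearest to its TSSs was 212.7 kb long, and its density of 1.88 peaks per 100 kb was above that of 87.9% of genes, most of which had no peak, and close to the median of 1.51 among genes with any.

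Sox18 (ENSMUSG00000046470.5, chr2:181404541-181406345, minus strand) had 1 peak, and 29.0% of protein-coding genes had 1 or more. The peak (chr2:181397417-181398474) was intergenic, with its summit 8.2 kb downstream of the TSS and past the 3′ end of the gene. The next gene by TSS was Tcea2, an elongation factor gene, 16.8 kb away. Enrichment was 39.9-fold (35.9 to 44.1) with 373 fragments, above 89.7% of the list, and the width of 1058 bp was above 98.6%. The nearest other peak lay 95.8 kb away, nearest to the TSS of Myt1, at 7.50-fold, so that 2 peaks lay within 100 kb of the Sox18 TSS. The window is shown because it is the only Sox18 site (mm9, plus strand, chr2:181398117-181398217, both arms of the composite in capitals).
Sox18 +8.2 kb: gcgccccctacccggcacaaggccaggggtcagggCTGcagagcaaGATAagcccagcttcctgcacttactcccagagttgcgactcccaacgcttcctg

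In the Sox18 window the composite ended beside the summit, with its GATA factor motif centred 2.5 bp away. ETS motifs lay 10 and 47 bp from the summit on the other side. No E-box was in the window, and the nearest lay at 81.5 bp. The window was 63.4% G and C. Sox18 thus had a single wide peak, Sox7 a cluster and Sox17 a set of widely spaced peaks.

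**Figure D1:**
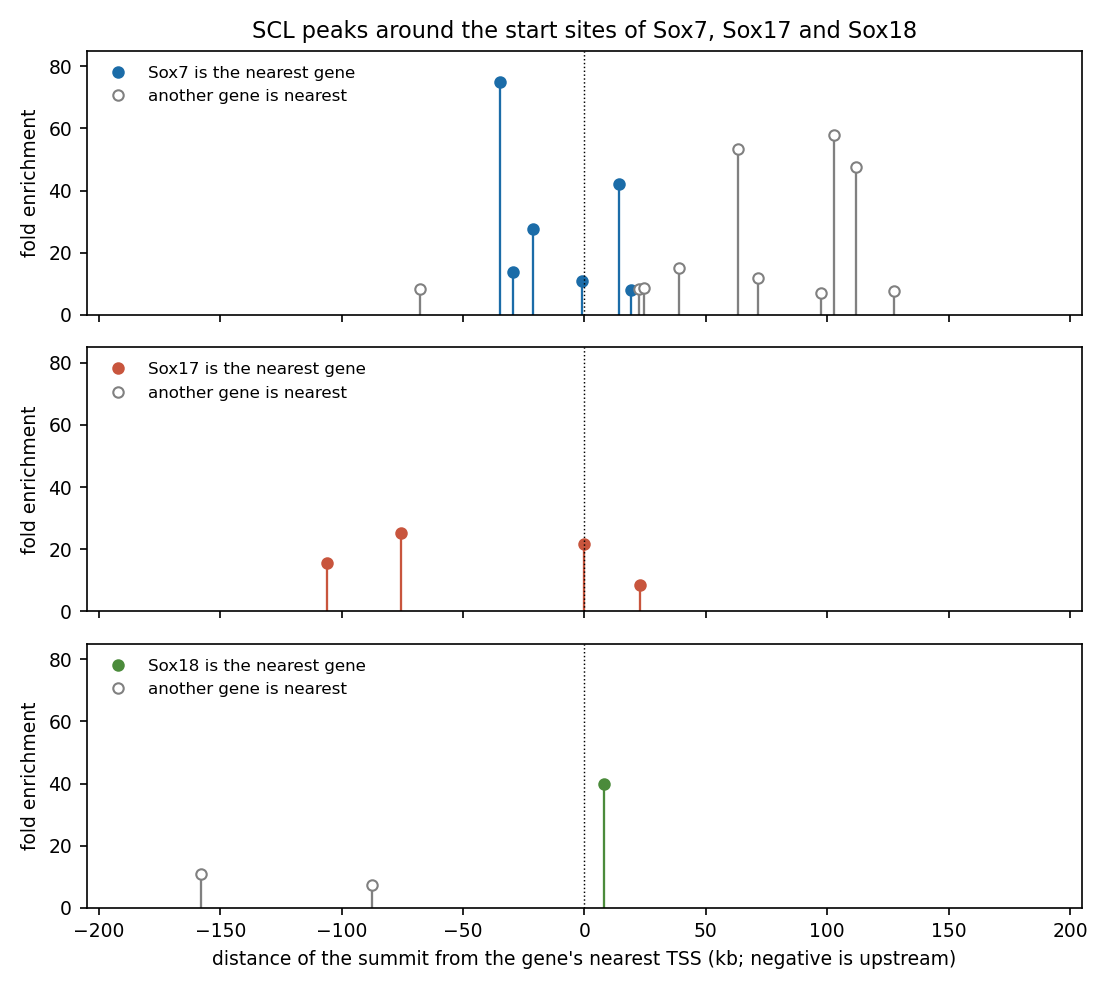
SCL peaks within 200 kb of each SoxF gene, with the distance of the summit from the nearest TSS of that gene in kb on the horizontal axis (negative is upstream) and fold enrichment on the vertical axis, filled where the SoxF gene is nearest and open where another gene is. Sox7 shows 6 filled stems inside 54.3 kb and 10 open ones, and Sox17 shows 4 filled and no open ones. Sox18 shows 1 filled stem at 39.9-fold and 2 open ones.

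The map of peaks around the 3 genes shows these arrangements side by side. In order of fold, the Sox7 −35.0 kb peak stood above the Sox7 +14.3 kb peak by more than their intervals, as did the Sox18 peak above Sox7 −21.1 kb and the Sox17 promoter peak above Sox17 −106.1 kb. The other 7 neighbouring pairs in the order had overlapping intervals, so that Sox7 +14.3 kb and Sox18 +8.2 kb, for example, could not be ranked. The background of 8 of the 11 peaks was a whole number of input fragments, 8 to 18, which adds counting error that the intervals above leave out. With both counts, the ratio of fragments to background, without the pseudocount of the fold, was 82.7 (52 to 140.3) at Sox7 −35.0 kb, 44.5 (27.0 to 78.6) at Sox18 +8.2 kb, 30.5 (15.6 to 68.1) at Sox17 −75.4 kb and 25.1 (14.0 to 49.7) at the Sox17 promoter. On these wider intervals the strongest SoxF peak overlapped those of Sox18 and of Sox17 −75.4 kb. The Sox17 promoter and Sox17 −106.1 kb (17.3, 10.1 to 31.8) also overlapped, so that separation did not hold. The other 2 separations each involve a peak whose background was not a whole number of input fragments, and no such interval was computed for them. The ratio at Sox7 −21.1 kb, 37.7, lay inside the wider interval of Sox18, so that separation did not hold either. The ratio at Sox7 +14.3 kb, 47.5, lay just below the lower bound of Sox7 −35.0 kb. That separation rests on the counting error of the summit fragments alone.

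**Figure D2:**
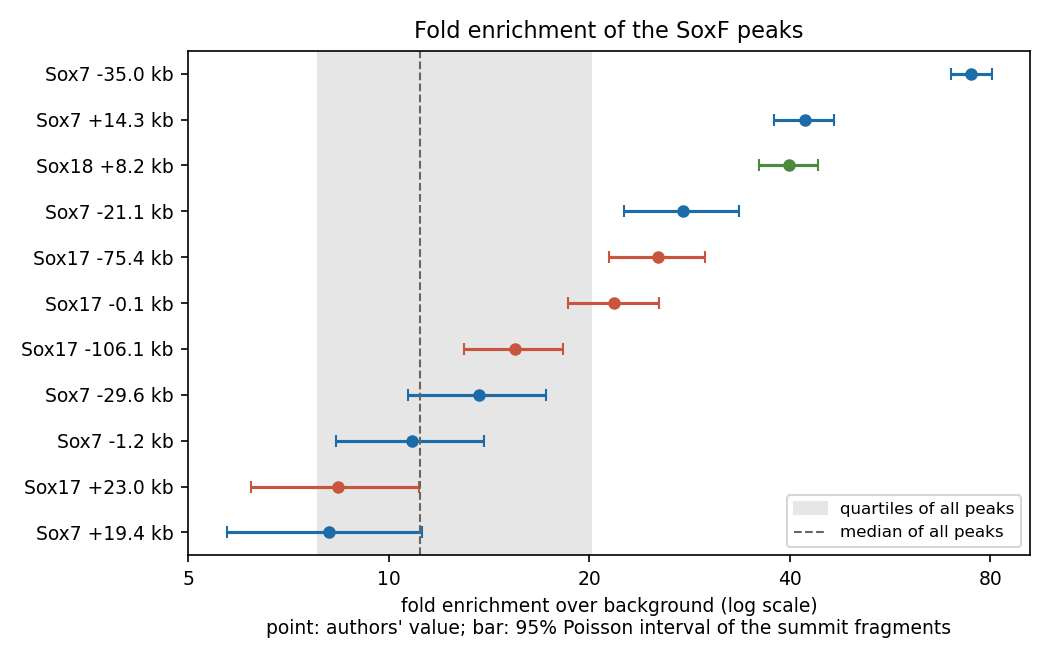
Fold enrichment of the 11 SoxF peaks on a log axis, with points at the authors' values and bars for the 95% Poisson interval of the fragments at the summit, over the quartiles (grey band) and median (dashed line) of all peaks. Sox7 −35.0 kb lies alone at 74.9-fold, the intervals of Sox7 −29.6, −1.2 and +19.4 kb include the list median of 11.1, and that of Sox17 +23.0 kb ends just below it.

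SoxF peaks ranged from 8.12 to 74.9-fold with a median of 21.8, where all 12885 peaks had a median of 11.1 and quartiles of 7.84 and 20.1. With every peak within 100 kb of a SoxF TSS counted, whichever gene was nearest, the median was 12.7, closer to that of the list. Of the 11, 8 were above the list median and 6 above the upper quartile. Median width was 667 bp against 397 bp, and the median number of fragments at the summit was 136 against 53. The median distance to the TSS was 21107 bp against 24135 bp. The authors' −log10 p ran from 23.7 at Sox7 +19.4 kb to 1165 at Sox7 −35.0 kb, against a list median of 40.7. These are descriptions of 11 peaks at 3 genes and were not tested.

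**Figure D3:**
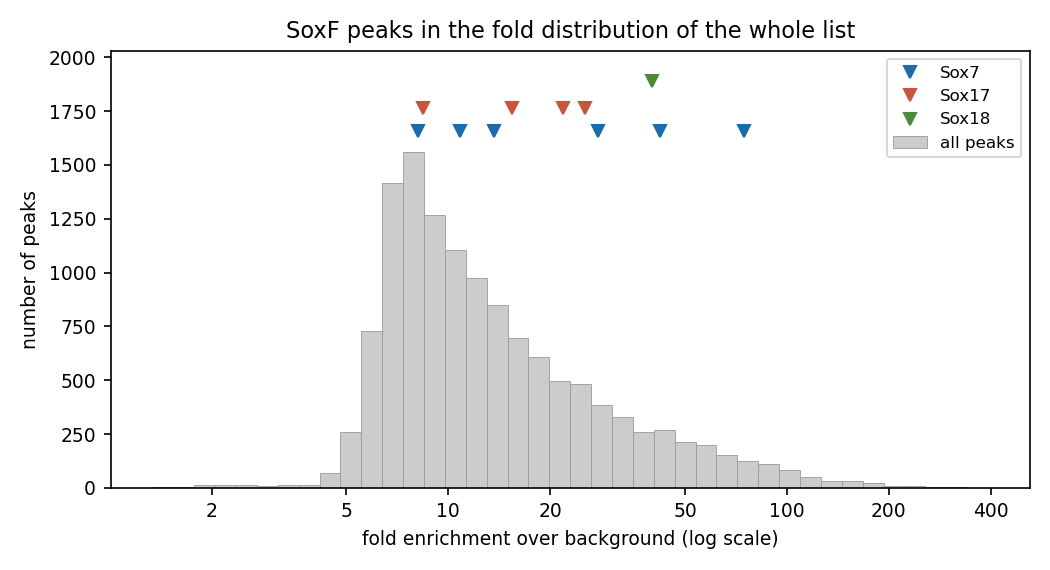
Number of peaks per bin of fold enrichment (log axis) for all 12885 peaks, with triangles at the SoxF peaks, placed by gene at arbitrary heights. Of the 11 triangles, 8 lie to the right of the list median of 11.1, and the Sox7 triangles span 8.12 to 74.9, the whole SoxF range.

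Motifs were matched on both strands within 50 bp of the summit. The GATA factor motif was any of AGATAA or AGATAG or TGATAA or TGATAG, and the E-box was CANNTG, of which CAGCTG is one form. The composite was CTG and GATA with 7 to 9 bases between them, and its GATA overlaps the GATA factor motif where the flanking bases fit. The ETS motif was AGGAA, the RUNX motif TGTGGT and the KLF motif CCACCC, each the core that a family of blood or endothelial transcription factors binds, and the SOX motif was ACAAAG or ACAATG or ACAATA. A match describes letters only and does not show that a factor was bound.

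A GATA factor motif was in 9 of the 11 SoxF windows, where 73.2% of all windows had one, and an E-box was in 3 of 11 against 52.6%. The E-box count depended on the window, with 6 of 11 against 73.6% at 100 bp on each side and 11 of 11 against 90.1% over the whole peak. The form CAGCTG was in 0 of 11 against 14.1%. Both a GATA factor motif and an E-box were in 2 of 11 against 37.8%. The composite was in 3 of 11 against 32.9%, namely Sox7 −29.6 kb, Sox17 −106.1 kb and Sox18 +8.2 kb, so each gene had 1. In all 3 the spacing was 8 bases, a spacing found in 37.4% of the composite windows of the list, where 9 bases was the most frequent at 55.7%. Fold enrichment of the 3 with a composite was 13.7, 15.5 and 39.9, inside the range of the 8 without, 8.12 to 74.9. Over the list, windows with a composite had a median of 13.3-fold and those without had 10.3-fold.

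An ETS motif was in 8 of 11 windows against 51.9%, a SOX motif in 2 of 11 against 16.4%, a KLF motif in 2 of 11 against 9.31% and a RUNX motif in 0 of 11 against 9.56%. The SOX matches were at Sox7 −29.6 kb and Sox17 −75.4 kb. For each of the 8 motifs the share over the whole list lay inside the Wilson 95% interval of the SoxF share, such as 52.3 to 94.9% for GATA, 9.75 to 56.6% for the E-box and 43.4 to 90.3% for ETS. For the motifs found in no window the upper bound of this interval was 25.9%. These intervals treat the 11 windows as independent draws. The 11 are instead all of the SoxF peaks, most share a gene with others, and all are part of the list. The intervals therefore cannot decide whether the SoxF shares differ from those of the list, and no difference was tested.

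The GATA factor motif stood without an E-box or composite in 6 of the 11 windows, against 21.0% of the list, a grouping made after the matches had been seen. With 100 bp on each side the class held 4 of 11, Sox7 −35.0 kb included, against 12.4%, and over whole peaks it held 0 of 11 against 4.52%, so it describes the sequence close to the summit only. The 6 at 50 bp were Sox7 −35.0, −21.1, +14.3 and +19.4 kb and Sox17 −75.4 and +23.0 kb, so they held the strongest and the weakest SoxF peaks alike. With a composite spacing of 6 to 10 bases allowed, the Sox17 −75.4 kb window also held a composite and left this class. Among the 437 peaks of the list with a fold as high as Sox7 −35.0 kb or higher, 54.2% had a composite and 14.2% had a GATA factor motif with neither composite nor E-box, the class to which the Sox7 peak belongs. Where present, the nearest GATA factor motif was a median of 11.5 bp from the summit (9 SoxF windows) against 16.5 bp in the list, and the nearest ETS motif 9.0 bp (8 windows) against 20 bp.

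**Figure D4:**
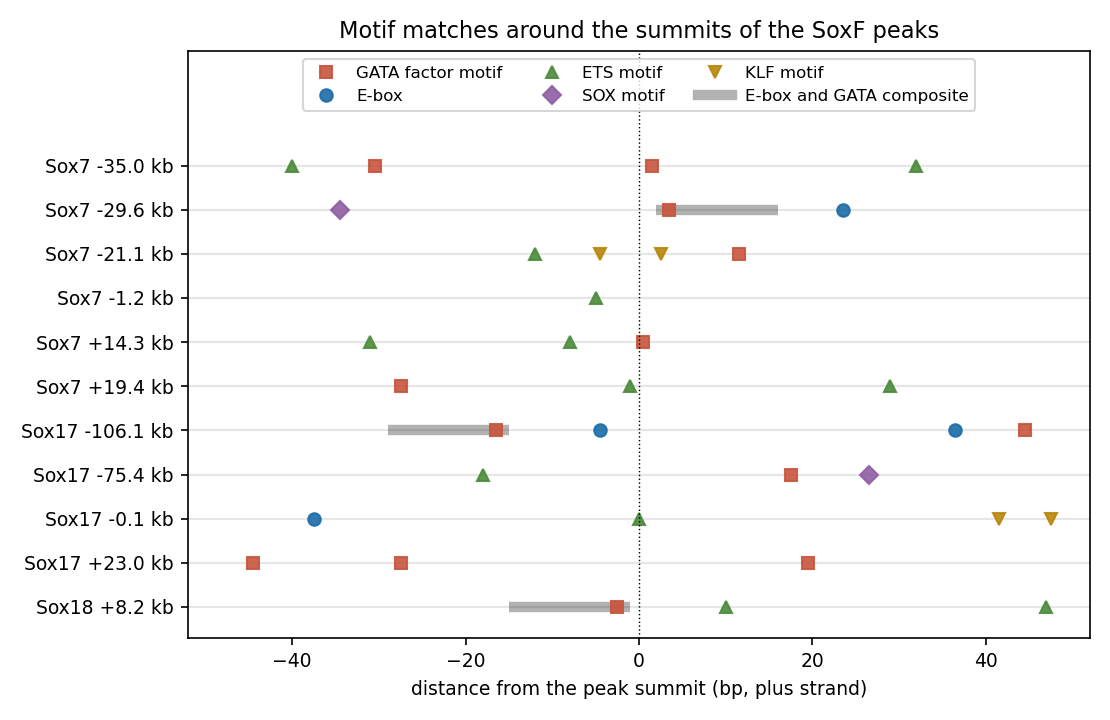
Position of motif matches within 50 bp of the summit of each SoxF peak, with distance from the summit in bp along the plus strand on the horizontal axis, 1 row per peak and grey bars for the span of a composite. GATA factor motifs (red squares) are in 9 rows and E-boxes (blue circles) in 3, and the Sox7 −1.2 kb row holds an ETS motif alone.

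Compared with the rest of the Sox family, the SoxF group had a peak at all 3 genes, where 29.0% of all protein-coding genes had one. Of the 16 other Sox genes found in the annotation, 8 had a peak, with a median of 0.5 peaks per gene against 4 for SoxF. That 8 became 3 when a peak had to lie in the gene or within 10 kb of it (25.3% of all genes) and 5 at a fold of at least 10 (19.9% of all genes), while the SoxF genes stayed at 3 of 3 both times. Sox4 (SoxC group), Sox5 and Sox6 (both SoxD group) had 8 peaks each, more than Sox7, and their strongest peaks were 42.3, 22.7 and 38.0-fold. The sequence nearest to these genes was longer, 667.3 kb for Sox4, 1350 kb for Sox5 and 681.6 kb for Sox6, and their density was 1.20, 0.592 and 1.17 peaks per 100 kb, lower than the 1.88 to 9.41 of the SoxF genes. Sox21 had 3.05 peaks per 100 kb, within the SoxF range. The highest fold in the other Sox genes was the 42.3 of Sox4, below the 74.9 of Sox7 and close to the 39.9 of Sox18.

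**Figure D5:**
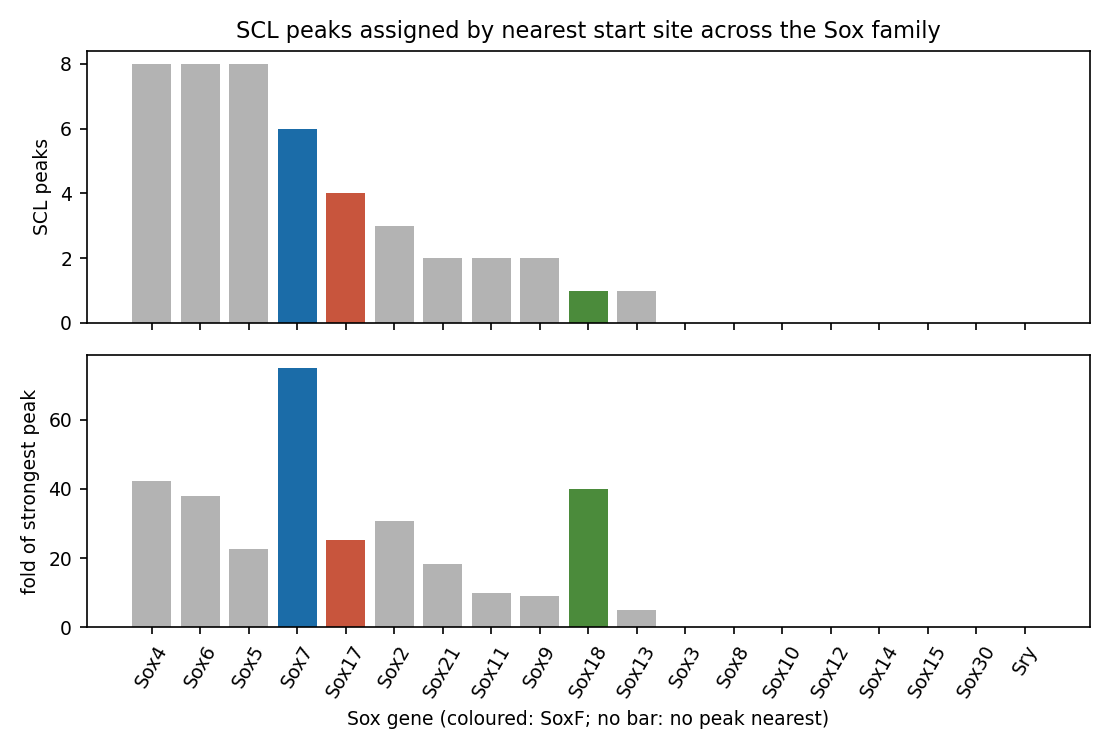
Number of peaks assigned by nearest TSS (top) and fold enrichment of the strongest peak (bottom) for Sox7, Sox17, Sox18 (coloured) and 16 other Sox genes (grey), with no bar for a gene with no peak. Sox4, Sox5 and Sox6 have 8 peaks each against 6 for Sox7, while Sox7 has the tallest bar of the lower panel at 74.9-fold.

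Other transcription factors of endothelium and hemogenic endothelium had a peak in 21 of 22 genes, against the same 29.0%, with a median of 5 peaks and a median of 50.05-fold for the strongest peak, which for the SoxF genes was 39.9-fold. Runx1, required for definitive blood, had 16 peaks and the highest fold of that list, 298.0. Ets1, an ETS factor of endothelium, had 12 peaks up to 224.6-fold, and Foxc2, a factor of arterial and lymphatic vessels, had 10 up to 26.2-fold. Of 20 endothelial genes known as SoxF targets or pathway partners, 16 had a peak against 29.0%, with a median of 2 peaks and 27.4-fold for the strongest. Efnb2, the arterial ephrin ligand, had 14 peaks, and Kdr, which encodes FLK1, and Cdh5, which encodes VE-cadherin, had 10 each. The strongest peaks of these were 90.6, 182.8 and 21.7-fold. Over all protein-coding genes the median was 0 peaks, and the strongest peak of a gene with any was 14.4-fold at the median. All lists were read from the same pooled call, and the differences between them were not tested.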

How the data were processed

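SCL ChIP-seq of FLK1+ cells from day 3.5 embryoid bodies (2 SCL libraries and 2 inputs) was analysed from 1 deposited peak list. Per the study's methods, the authors aligned reads to mm9 with Bowtie 1.1.2, removed duplicates and called peaks with MACS2 2.0.10. Its reporting summary names the irreproducible discovery rate for the peaks of the merged replicates. The peak names show merged replicates against merged input, so depth per library is unknown. The deposited positions (start, end, summit) were used as given and are printed counted from 1. The deposited fold is a ratio of fragments to local background with a pseudocount of 1, computed by the authors. The −log10 p and −log10 q are also the authors' values, and the deposited score was not used.

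Fold and −log10 p were solved together for the whole number of fragments at the summit and the background. Over all peaks, 99.9% matched the authors' −log10 p within 0.001. Background was read as whole input fragments where it was a multiple of 0.524 within 0.002. Exact Poisson 95% intervals cover counting error only.

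TSSs of 22238 protein-coding genes (GENCODE vM1, NCBIM37, the same build as mm9) were used. Scripts ran in Python 3.11.15 with numpy 2.4.6, pandas 2.3.3, scipy 1.17.1, pysam 0.24.0 and matplotlib 3.10.9 and were tested on simulated data. Every SoxF peak is named, with, in each other gene list, the 3 genes with the most peaks and the one with the highest fold, and genes neighbouring SoxF peaks. Sox21, Lyl1, Etv2 and Tal1 were named after their values were seen. Sequences are given for the strongest peak of each gene and for windows with a composite. RefSeq promoter entries matched 0 of the 3 genes. Members and lists were chosen with earlier results of these data known. Alternatives changed the TSS set, the assignment rule, the peak threshold, the motif window and the composite spacing. One of the 17 other Sox genes listed, Sox1, was not matched in the annotation.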

Additional observations from a re-analysis of the deposited data

How the results depend on the processing

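Of 50 alternative values, 41 stayed within 1.5 times the reported count or within the spread, and 9 moved. Assignment by gene body or 10 kb on either side left 2 peaks for Sox7 (6 as reported) and 1 for Sox17 (4), and counting every peak within 100 kb of a TSS gave 13 for Sox7 and 2 for Sox18 (1 as reported). The E-box was in 6 of the 11 SoxF windows with 100 bp on each side and in 11 over the whole peak, against 3 as reported. Windows with a GATA factor motif but no composite and no E-box, an alternative added after seeing the data, numbered 4 and 0 in the same order, against 6. The number of other Sox genes with a peak was 3 by gene body or 10 kb and 5 at a fold of at least 10, against 8. The other TSS sets left the counts at 6, 4 and 1. The strongest Sox17 peak was the promoter peak by −log10 p or by fragments, at 21.8-fold in place of 25.4. The median fold was 26.5 at a −log10 q of at least 50, and 12.7 with every peak within 100 kb. That 12.7 was counted as unmoved, although it lay near the list median of 11.1. The 95% interval of the reported median of 21.8 was wide, 8.40 to 42.1. No paired analysis was possible because only pooled values are given, and no replicate could be left out for that reason. Low folds carry the widest relative intervals, from 35 fragments at Sox7 +19.4 kb.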
